A study of Mus musculus with 6 samples.

Results

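The transcripts described here are those of the mouse mitochondrial genome in RNA-seq libraries of whole intervertebral discs (IVDs). They were taken as every row of the count files whose gene symbol starts with mt-, which gave 37 genes of 43472 gene symbols. Of these, 13 encode proteins, 2 encode ribosomal RNAs (rRNAs) and 22 encode transfer RNAs (tRNAs). The libraries came from mice at postnatal day 20, of the strain labelled C57B6/J. The mutant group was Col2Cre;Adgrg6 f/f mice, in which a Cre recombinase driven by Col2 removes floxed Adgrg6, an adhesion G protein-coupled receptor gene. The control group was Cre (-) littermates, called wild type in the sample labels and Col2Cre controls in the sample titles. Each group held 3 libraries, and each library was 1 pool of discs between T8 and L5 from 2 to 3 mice, so single animals were not measured. The comparison asks whether discs without Adgrg6 differ in transcripts of the mitochondrial genome at an age before overt histopathology. The Col2Cre driver recombines in the whole disc and also in periosteum and trabecular bone, and the tissue was processed whole. In such bulk tissue, fewer cells of a type and less RNA per cell cannot be told apart.

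The mitochondrial genome is a small circular DNA molecule that is transcribed from both strands into long precursors. The precursors are cut, mostly at tRNAs that lie between the other genes, into mRNAs, rRNAs and tRNAs. Most of the mRNAs, though not all, carry short poly(A) tails. The mRNAs encode core subunits of complexes I, III and IV of the respiratory chain and of ATP synthase. All other subunits, and all proteins that copy, transcribe and translate this genome, come from nuclear genes. Disc cells lie in a poorly vascularised tissue and depend largely on glycolysis.

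Between 9061491 and 12017008 counts fell on genes in a library. Cartilage markers were abundant in all 6 libraries, with 8 genes of disc cartilage summing to between 77199 and 138166 CPM. CPM are counts per 1000000 of the library size after TMM scaling, unless stated otherwise. The targeted gene, listed under its older symbol Gpr126, stood at 124, 108 and 94.3 CPM in control libraries 1, 2 and 3 and at 138, 124 and 106 CPM in mutant libraries 1, 2 and 3. A count over the whole gene includes exons outside the deleted part, so these values do not check the genotype labels. Mutant library 1 stood apart from the other 5 libraries in mitochondrial transcripts, and group differences in these transcripts, and counts of genes called in each list of nuclear genes, are therefore given with and without it.

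Several mitochondrial genes share their sequence with nuclear genes, which bears on how their reads can be assigned. Between the end of mt-Co1 and the middle of mt-Nd4, chrM:6381-11042, 7 mitochondrial genes have near-identical nuclear copies in whole or in part, annotated as 7 pseudogenes at chr1:24611535-24616197 on the minus strand (GRCm38). The pseudogenes lie in the order of the mitochondrial genes, and the span is 4663 bases on chromosome 1 and 4662 bases in the mitochondrial genome. Of the 7, 5 matched their mitochondrial gene without a mismatch, over 876 bases for Gm28439, the copy of mt-Nd4, and over 783 bases for Gm28437, the copy of mt-Co3. The first 60 bases of mt-Nd3, which encodes a subunit of complex I, are shown with those of its copy Gm28438 because a single base separates the genes over 345 aligned bases. Capitals mark the differing base, T3C, counted from the first base of mt-Nd3, with the mitochondrial base first. It is the third base of the first codon. The genes lie at chrM:9459-9518 on the plus strand and chr1:24613060-24613119 on the minus strand.

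mt-Nd3: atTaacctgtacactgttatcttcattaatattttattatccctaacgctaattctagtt

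Gm28438: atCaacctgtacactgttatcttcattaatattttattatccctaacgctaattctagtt

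The other edge of the copy is shown by the stretch of mt-Co1, the catalytic subunit of complex IV, at chrM:6381-6440 on the plus strand, and the start of its partial copy Gm29216 at chr1:24616138-24616197 on the minus strand. All 6 mismatches over 492 aligned bases, T1056A, C1057T, A1059G, A1060G, C1062A and A1066T from the first base of mt-Co1, fell in this stretch and are in capitals, and the bases after them are the same in both genomes.

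mt-Co1: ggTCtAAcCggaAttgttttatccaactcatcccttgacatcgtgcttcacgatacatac

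Gm29216: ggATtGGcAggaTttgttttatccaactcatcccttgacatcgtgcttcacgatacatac

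Inside the copied stretch, the coding sequences of the ATP synthase subunits mt-Atp8 and mt-Atp6 overlap by 43 bases at chrM:7927-7969 on the plus strand. In the sequence of this overlap, capitals mark the first 3 bases of mt-Atp6 and the last 3 of mt-Atp8. A read that covers the overlap belongs to both genes.

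overlap of mt-Atp8 and mt-Atp6: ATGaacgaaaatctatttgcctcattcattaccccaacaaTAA

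The share of copied sequence was measured as the percent of all 100-base windows of a mitochondrial gene that also occur, base for base, in a transcript of another annotated gene. It was 99.9% for mt-Co3, 99.5% for mt-Co2 and mt-Atp6, 98.5% for mt-Nd4l, 97.6% for mt-Nd3, 60.8% for mt-Nd4, 30.8% for mt-Co1 and 3.19% for mt-Nd2. The windows of mt-Nd2 and some of those of mt-Co1 and mt-Co2 matched pseudogenes on chromosome 2, Gm13339, Gm13340 and Gm13341. The share was 0 for mt-Nd1, mt-Nd5, mt-Nd6, mt-Cytb and both rRNAs. It was also 0 for mt-Atp8, which has no annotated copy of its own but lies between genes that do. The distance from the end of the mt-Co2 match to the start of the mt-Atp6 match was 233 bases in both genomes.

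The 13 mRNAs fell into a high and a low set by level, given as CPM per kb of gene length so that genes can be compared. The high set, with at least 557 CPM per kb in every library, was mt-Co1, mt-Cytb, mt-Nd1, mt-Nd2, mt-Nd4, mt-Nd5 and mt-Nd6. The low set, with at most 67.2 CPM per kb in any library, was mt-Co2, mt-Co3, mt-Atp6, mt-Atp8, mt-Nd3 and mt-Nd4l. The low set is the contiguous block from mt-Co2 to mt-Nd4l, which are the mRNA genes that lie whole within the bounds of the copied stretch. The count files list 0 read pairs as aligned to more than 1 place, so pairs that fit a mitochondrial gene and its copy equally well are not on record as a class. How the low counts of this set arose was not tested, and the low values are therefore levels of countable reads.

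The counts on the copies were of the same order as those on the low genes. Over all libraries, mt-Co2 held 1351 counts and Gm28661, its copy, 1676, mt-Atp6 held 564 counts and Gm10925 825, and mt-Co3 held 925 counts and Gm28437 836. The pair with the single mismatch differed more. The counts on mt-Nd3 were 7, 17 and 22 in controls 1, 2 and 3 and 35, 19 and 22 in mutants 1, 2 and 3, against 138, 143 and 287 and 312, 70 and 119 on Gm28438. The nuclear row was higher in all 6 libraries, 8.76 times over their sum. For the genes that are copied only in part, the nuclear row held little, with 829 counts on Gm29216 against 587253 on mt-Co1 and 192 on Gm28439 against 144154 on mt-Nd4. On chromosome 2, Gm13340, which aligned to all 1545 bases of mt-Co1 at 97.6% identity, held 2291 counts, and Gm13341, which shared 88 of the 100-base windows of mt-Co2, held 1609.

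**Figure D1:**
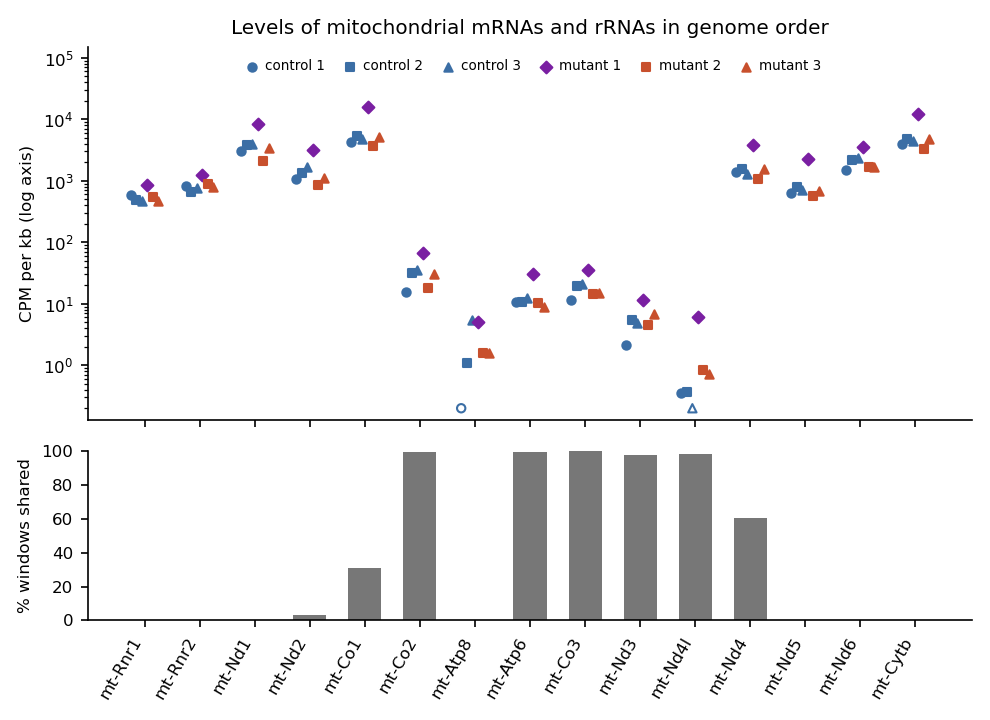
Level of each mitochondrial mRNA and rRNA in genome order, as CPM per kb on a log axis with 1 point per library (open symbols at the lower edge are counts of 0), above the percent of its 100-base windows that also occur in another annotated gene. The block from mt-Co2 to mt-Nd4l lies at or under 67.2 CPM per kb, and the points of mutant 1 (diamonds) lie above those of the other libraries for the 7 high mRNAs.

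Within the high set, the order of levels per kb was nearly fixed. In all 6 libraries mt-Co1 was first, mt-Cytb, the only mitochondrial subunit of complex III, came after it, and mt-Nd1, a membrane subunit of complex I, came next. In the controls these levels were 4792 ± 556, 4378 ± 421 and 3660 ± 493 CPM per kb (SD, n = 3), so that each differed from the next by less than the sum of their SDs although the order held in every library. The complex I subunits mt-Nd6, mt-Nd4 and mt-Nd2 followed in changing order, at 2009 ± 450, 1403 ± 123 and 1359 ± 296 CPM per kb (SD, n = 3), and mt-Nd5, a further complex I subunit, stood at 710 ± 75.9 CPM per kb. The means of mt-Nd4 and mt-Nd2 did not differ beyond their spread. The library kit does not mark strand, so reads of mt-Nd6 and of the opposite strand cannot be told apart. Its place is thus that of the row. The rRNAs mt-Rnr2 and mt-Rnr1, of the large and the small mitochondrial ribosomal subunit, stood at 749 ± 74.8 and 513 ± 59.1 CPM per kb (SD, n = 3), and mt-Rnr1 was the lowest of the 9 in every library. Selection on poly(A) bears on the rRNA level, which is not that of total RNA. When levels were divided by the number of windows not shared with another gene in place of gene length, the control mean of mt-Nd4 was 3852 ± 337 CPM per 1000 windows (SD, n = 3), beside 4082 ± 550 for mt-Nd1 and 7403 ± 858 for mt-Co1. On that scale mt-Nd4 was above mt-Nd1 in control 1 (3750 against 3452) and in mutants 1, 2 and 3 (10505 against 9443, 2965 against 2341 and 4209 against 3823) and below it in controls 2 and 3. The place of mt-Nd1 after mt-Cytb in every library therefore holds per kb and not on this scale.

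The share of gene counts on mt- rows differed between libraries more than between groups. It was 2.05%, 2.504% and 2.73% in controls 1, 2 and 3 and 5.69%, 1.80% and 2.32% in mutants 1, 2 and 3. The exact 95% binomial interval of mutant 1, which covers counting error only, ran from 5.68% to 5.70%. Mutant 1 thus held 2.34 times the control mean, while mutants 2 and 3 lay below it, and mutant 2 was the lowest of all libraries. The mean was 2.43% ± 0.346 in controls and 3.27% ± 2.11 in mutants (SD, n = 3), and 2.06% in mutants 2 and 3 alone. The direction of the difference thus turned when mutant 1 was left out, from 0.839 percentage points higher to 0.372 lower.

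**Figure D2:**
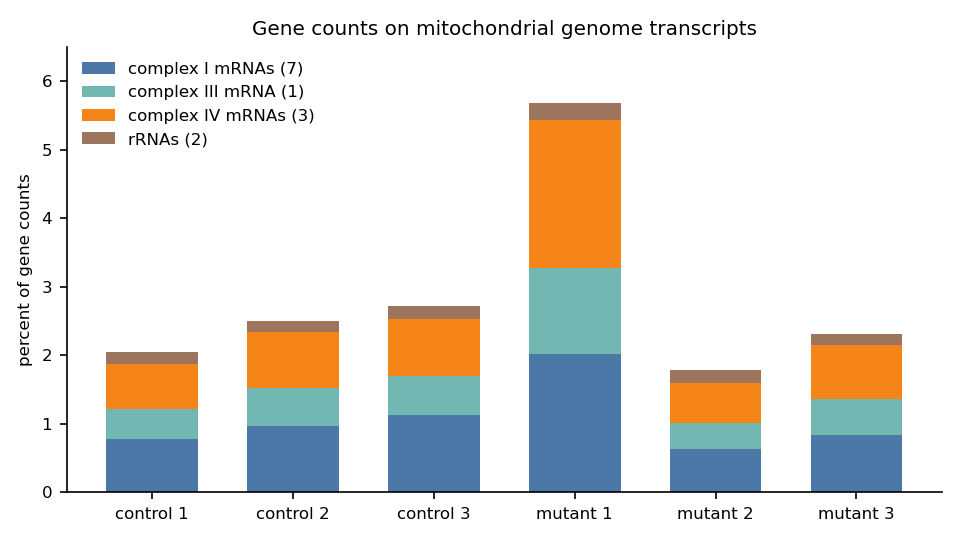
Percent of gene counts on mitochondrial transcripts in each library, stacked by the complex that the mRNAs belong to and the rRNAs (ATP synthase mRNAs and tRNAs, each at most 0.0101%, are not drawn). Mutant 1 reaches 5.69% and the other 5 libraries lie between 1.80% and 2.73%.

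The complexes did not stand equally far from the controls in mutant 1. Counts on the 7 complex I mRNAs were 2.02% of gene counts there, 2.11 times the control mean. Counts on mt-Cytb were 1.25%, which was 2.40 times the control mean, and the 3 complex IV mRNAs, nearly all mt-Co1, were 2.16%, which was 2.80 times the control mean. The rRNAs were 0.247%, only 1.42 times the control mean. In the other 5 libraries the complex I share lay between 0.640% and 1.13%, the mt-Cytb share between 0.377% and 0.570%, and the complex IV share between 0.580% and 0.839%.

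The single genes showed the same library apart. On the scale of CPM per kb, mt-Co1 stood at 4269, 5375 and 4731 in controls and at 15639, 3665 and 5200 in mutants 1, 2 and 3. Mutant 1 was 2.91 times the highest of the other libraries, while mutant 2 lay below and mutant 3 within the range of the controls. For mt-Cytb the values were 3964, 4806 and 4364 in controls and 12268, 3231 and 4759 in mutants. For mt-Nd5 they were 629, 779 and 721 in controls and 2253, 557 and 675 in mutants. Both genes repeated the pattern of mt-Co1, with mutant 2 the lowest of the 6 libraries.

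Of the other complex I mRNAs, mt-Nd4 stood at 1366, 1540 and 1304 CPM per kb in controls and at 3827, 1080 and 1533 in mutants. For mt-Nd1 the levels were 3095, 3882 and 4003 CPM per kb in controls and 8466, 2099 and 3427 in mutants. For mt-Nd2 they were 1085, 1320 and 1674 CPM per kb in controls and 3210, 855 and 1122 in mutants. In mutant 1 these were 2.73, 2.31 and 2.36 times the control mean. The mRNA that stood out least was mt-Nd6, the only mRNA encoded on the other strand, at 1494, 2212 and 2322 CPM per kb in controls and 3605, 1681 and 1691 in mutants. Its level in mutant 1 was 1.79 times the control mean. Over the 7 high mRNAs the ratio to the control mean ran from 1.79 to 3.26 in mutant 1, from 0.573 to 0.837 in mutant 2 and from 0.825 to 1.09 in mutant 3, so mutants 1 and 2 lay on opposite sides of the control mean for every one of them.

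The low mRNAs, although counted at few reads, were also highest in mutant 1 in CPM, except for mt-Atp8. The counts on mt-Co2, a complex IV subunit that holds the copper centre receiving electrons from cytochrome c, were 101, 194 and 306 in controls and 404, 152 and 194 in mutants. Those on mt-Atp6, the subunit of the proton channel of ATP synthase, were 68, 66 and 108 in controls and 180, 86 and 56 in mutants. Those on mt-Co3, the third complex IV subunit, were 84, 135 and 208 in controls and 245, 141 and 112 in mutants. On the scale of CPM, mutant 1 was 2.45, 2.67 and 2.08 times the control mean for these genes. For mt-Atp8 there were 32 counts in all and for mt-Nd4l, a small complex I subunit, 23, of which 16 were in mutant 1, and neither passed the filter on low counts.

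All libraries were then compared with edgeR's quasi-likelihood test over 16152 genes, in which 18 of the 37 mitochondrial genes could be tested (11 mRNAs, both rRNAs and 5 tRNAs), each because it passed the filter on low counts. None of the 18 had an unadjusted p under 0.05, where 7.21% of all genes tested did. Of all genes tested, 2.89% were called higher in mutants and 4.32% lower. The count for the 18 was also 0 with DESeq2 and with limma-voom. The smallest p was 0.155, for mt-Co1, and adjusted p-values lay between 0.779 and 0.992. The groups overlapped in CPM for all 18, where they did not for 11.4% of all genes, 5.45% with the mutants higher and 5.96% with the mutants lower. With all libraries, the log2 fold change of mutant over control was above 0 for all 11 mRNAs tested, as for 48.4% of all genes, from 0.21 ± 0.33 (SE) for mt-Nd6 to 0.84 ± 0.61 for mt-Nd3, with a median of 0.53, beside -0.01 over all genes. For mt-Co1 it was 0.77 ± 0.50 and for mt-Cytb 0.63 ± 0.45 (SE). In mutant 1 the level was over 2 times the control mean for 14 of the 18, where that held for 3.68% of all genes. With no filter on low counts, mt-Nd5 and mt-Tp had an unadjusted p under 0.05, both higher in mutants, where 8.62% of 26418 genes did and 2.87% were higher.

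Without mutant 1, 10 of the 11 mRNAs had a log2 fold change below 0, where 49.7% of all genes were above 0. The values ran from -0.42 ± 0.28 (SE) for mt-Nd2 to 0.45 ± 0.76 for mt-Nd3, with a median of -0.16, beside -0.0033 over all 17179 genes tested. In that comparison 2 mitochondrial genes, the tRNAs mt-Tq and mt-Ts1, had an unadjusted p under 0.05. Of all genes tested, 4.76% did, and 2.52% of all genes were called lower. Both tRNAs were lower in mutants and had an adjusted p of 0.939 by edgeR. Without mutant 2, in contrast, 9.76% of all genes had an unadjusted p under 0.05, and 4.73% of all genes were called higher. Of the 18, 5 had such a p, all higher in mutants. These were mt-Co1, with a log2 fold change of 1.14 ± 0.45 (SE), mt-Cytb with 0.98 ± 0.41, mt-Nd4 with 0.95 ± 0.38, mt-Nd5 with 1.06 ± 0.43 and mt-Tp with 0.98 ± 0.36. Their adjusted p-values in edgeR were 0.491 to 0.493. The difference between the groups thus did not exceed the spread between pools, and the sign for 10 of the 11 mRNAs turned when mutant 1 was left out, while that of mt-Nd3, both rRNAs and mt-Tq did not. The log2 fold change of mt-Rnr1 fell from 0.28 ± 0.25 with all libraries to 0.017 ± 0.23 without mutant 1 (SE). That of mt-Rnr2 fell from 0.37 ± 0.25 to 0.19 ± 0.25 (SE).

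**Figure D3:**
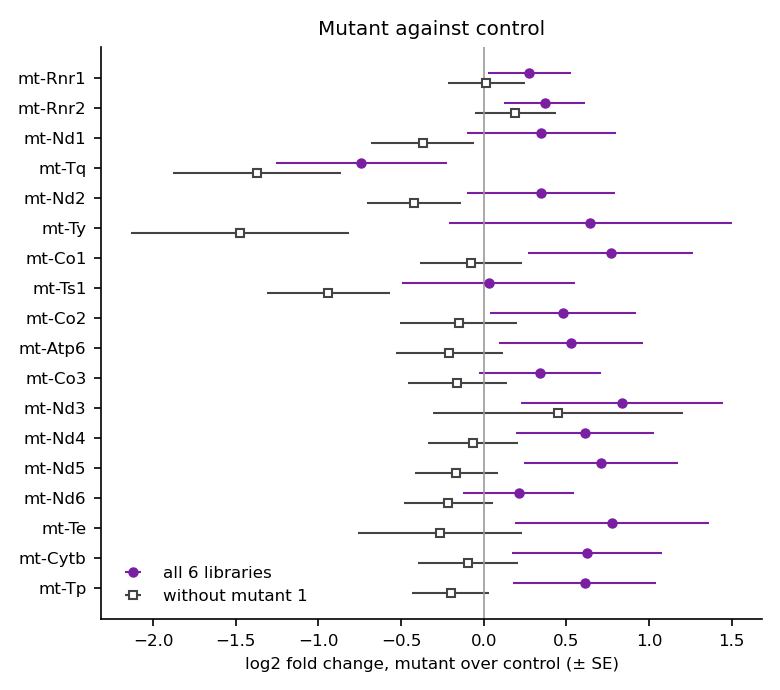
Log2 fold change of mutant over control with its standard error for the 18 mitochondrial genes tested with edgeR, in genome order, with all 6 libraries (filled circles) and without mutant 1 (open squares). Of the 11 mRNAs, all lie above 0 with all libraries and 10 lie below 0 without mutant 1.

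The rRNAs did not share the spread of the mRNAs. For mt-Rnr2 the levels were 815, 668 and 764 CPM per kb in controls and 1235, 889 and 780 in mutants 1, 2 and 3. For mt-Rnr1 they were 581, 485 and 474 CPM per kb in controls and 853, 544 and 470 in mutants. Mutant 1 was again highest but by 1.65 and 1.66 times the control mean, and mutant 2, the lowest library for 6 of the 7 high mRNAs, was the next highest for mt-Rnr2 and below control 1 for mt-Rnr1. As a ratio within each library, which needs no scaling between libraries, there were 9.68, 6.43 and 7.47 rRNA counts per 100 mRNA counts in controls and 4.54, 12.3 and 7.58 in mutants. The lowest and the highest ratio of the 6 libraries were thus both in mutants, and the controls lay between them. The mean log2 ratio was -3.69 ± 0.30 in controls and -3.74 ± 0.72 in mutants (SD, n = 3), and -3.37 in mutants 2 and 3 alone, so the direction of the difference turned.

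A few genes had shares of the mitochondrial mRNA counts that did not overlap between the groups. Of these counts, mt-Co1 took 34.6%, 35.2% and 32.9% in controls and 39.6%, 36.1% and 36.2% in mutants 1, 2 and 3. For mt-Nd1 the share was 15.5%, 15.7% and 17.2% in controls and 13.3%, 12.8% and 14.8% in mutants. For mt-Nd2 it was 5.91%, 5.80% and 7.81% in controls and 5.46%, 5.67% and 5.25% in mutants. All 3 mutants lay above the controls for mt-Co1 and below them for mt-Nd1 and mt-Nd2. Of the 13 mRNAs, 4 had shares that did not overlap between groups, the other being mt-Nd4l with its 23 counts. Over all genes tested, 3.57% did not overlap when scaled to the mitochondrial mRNA counts, and 11.4% did not in CPM. The first scaling divides nuclear genes by a total that was high in mutant 1. It is therefore no like comparison for the mRNAs, which are parts of that total. Shares of 1 total are bound to each other, so that a higher share of mt-Co1 lowers the rest, and the gap was narrow, between 35.2% and 36.1% for mt-Co1 and between 14.8% and 15.5% for mt-Nd1. The shares of mt-Cytb, mt-Nd4 and mt-Nd5 overlapped between groups. With library size taken from mitochondrial mRNA counts, 0 mitochondrial genes had an unadjusted p under 0.05 by edgeR, where 355 of all genes did. In that fit the log2 fold change was 0.13 for mt-Co1 and -0.25 for mt-Nd1 and for mt-Nd2, each with an adjusted p of 0.9999. A shift in composition was therefore not called.

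The share of mt-Nd6 was 4.07%, 4.86% and 5.42% in controls and 3.07%, 5.57% and 3.96% in mutants, lowest in mutant 1 and highest in mutant 2, as for the rRNAs. The library kit does not mark the strand of a transcript, so reads of mt-Nd6 and reads of the opposite strand at the same place cannot be told apart.

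**Figure D4:**
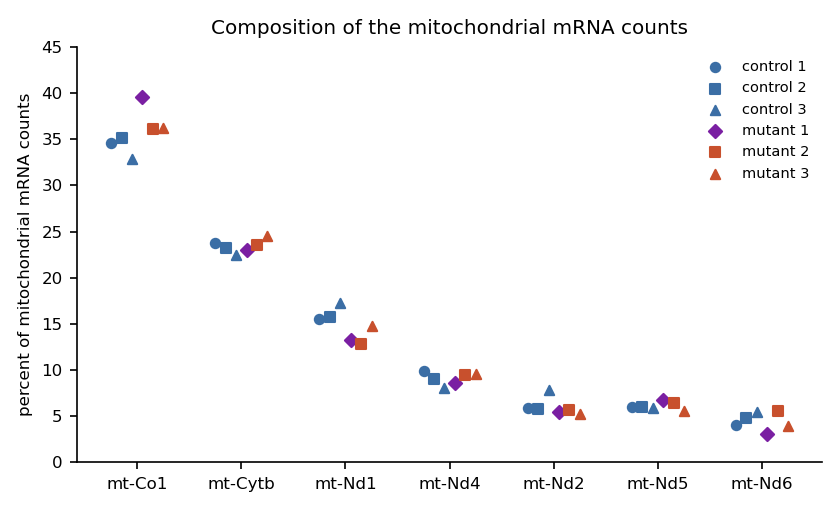
Percent of mitochondrial mRNA counts on each of the 7 high mRNAs, 1 point per library. The 3 mutants lie above the controls for mt-Co1 and below them for mt-Nd1 and mt-Nd2, and the groups overlap for mt-Cytb, mt-Nd4, mt-Nd5 and mt-Nd6.

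Few reads fell on tRNAs, which are short and carry no long poly(A) tail. Whether either trait bears on their counts was not tested. Of 22 tRNA genes, 9 had a count in any library, and they held 0.00263% to 0.0101% of gene counts. The counts followed the strand. The 14 tRNA genes on the plus strand, which also carries the rRNAs and 12 of the mRNAs, held 66 counts together and 11 of them none, while the 8 on the minus strand held 2952, and 5 of these had at least 50. Those 5 tRNAs share the strand of mt-Nd6 and lie against the direction of the other 12 mRNAs. Most counts fell on mt-Tp, the proline tRNA, with 1522. The next was mt-Ts1, a serine tRNA, with 547, whose last 3 bases overlap the end of mt-Co1 on the opposite strand. The sequences of both are given on the minus strand, at chrM:15356-15422 and chrM:6870-6938, with that overlap in capitals.

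mt-Tp: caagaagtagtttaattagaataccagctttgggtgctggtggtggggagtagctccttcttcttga

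mt-Ts1: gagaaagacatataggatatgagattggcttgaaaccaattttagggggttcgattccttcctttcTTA

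Without strand in the kit, reads on these rows and reads of transcripts running the other way through them cannot be told apart. The counts on mt-Tp were 181, 202 and 250 in controls and 521, 175 and 193 in mutants 1, 2 and 3, with mutant 1 highest as for the mRNAs. The counts on mt-Ts1 were 64, 75 and 148 in controls and 163, 50 and 47 in mutants. Those on mt-Ty, the tyrosine tRNA, were 28, 38 and 46 in controls and 128, 9 and 17 in mutants. In CPM, mutants 2 and 3 lay below all controls for mt-Ts1 and mt-Ty, and mutant 1 above all of them.

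The counts on mt-Tq, the glutamine tRNA, were 37, 79 and 81 in controls and 59, 36 and 17 in mutants. It was the only gene of the 18 that was not highest in mutant 1 in CPM, where mutant 1 was highest for 21.2% of all genes. On mt-Te, the glutamate tRNA next to mt-Nd6, the counts were 28, 34 and 54 in controls and 115, 39 and 26 in mutants. Of these 5 tRNAs, the log2 fold change without mutant 1 was -1.47 ± 0.66 for mt-Ty, -1.37 ± 0.51 for mt-Tq and -0.94 ± 0.37 for mt-Ts1 (SE), each with an adjusted p of 0.939 by edgeR. With all libraries it was 0.65 ± 0.86 for mt-Ty, -0.74 ± 0.52 for mt-Tq and 0.03 ± 0.52 for mt-Ts1 (SE), so the sign of mt-Ty and mt-Ts1 turned. For mt-Te and mt-Tp it was 0.78 ± 0.59 and 0.61 ± 0.43 with all libraries and -0.26 ± 0.49 and -0.20 ± 0.23 without mutant 1 (SE), so their sign turned too. The other 4 tRNA genes with a count, mt-Tw, mt-Ta, mt-Td and mt-Tt, held between 1 and 49 counts each over all libraries.

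The nuclear partners of these subunits did not follow mutant 1. Nuclear genes for subunits and close factors of complexes I, III and IV and of ATP synthase, 77 in number, held 0.456%, 0.481% and 0.555% of gene counts in controls and 0.376%, 0.426% and 0.443% in mutants 1, 2 and 3. All mutants were below all controls in this raw share, and mutant 1, highest in mitochondrial mRNA, was lowest in it. That last place depended on the scaling. In summed CPM, mutant 2 was below mutant 1 for complex I (1265 against 1290), complex IV (845 against 853) and ATP synthase (1608 against 1627). For complex III mutant 1 was below mutant 2 (449 against 457). Among markers of cell types, counts called at an unadjusted p under 0.05 stand against 2.89% of all genes higher in mutants and 4.32% lower, and without mutant 1 against 4.76% in all, 2.52% lower. Of 6 markers of annulus and tendon, 3 were higher, with summed levels of 6763 to 16889 CPM in controls and 15305 to 25262 in mutants. Of 6 osteoblast markers, 2 were higher, Bglap and Bglap2, with summed levels of all 6 of 758 to 1213 CPM in controls and 871 to 1140 in mutants. Of 6 tested adipocyte markers, 1 was lower, Cidea, with sums of 81.9 to 175 CPM in controls and 93.9 to 143 in mutants. Of 8 cartilage markers, 1 was lower, Matn3. Of 7 erythroid genes, 1 was higher, Slc4a1, with sums of 39.6 to 342 CPM in controls and 213 to 449 in mutants. Higher were also 3 of 8 genes of neurons and glia, 2 of 9 neutrophil genes and 1 of 7 macrophage genes, while 0 of 7 nucleus pulposus markers passed in either direction, with or without mutant 1. In the skeletal muscle list 12 of 14 were lower, and the list summed to 5538 CPM in control 1, to 299 and 227 in controls 2 and 3 and to 327 to 344 in mutants, above those 2 controls. Without mutant 1 the counts were 3 higher for annulus and tendon, 2 higher and 1 lower for osteoblasts, 1 lower for adipocytes, 1 lower for cartilage, 1 higher for erythroid genes, 2 higher for neurons and glia, 1 higher for neutrophils, 0 for macrophages and 3 lower for muscle. No marker of these lists was at 0 in all libraries, and their part in the nuclear subunit levels was not tested. There were 4.10, 4.88 and 4.58 mitochondrial mRNA counts for each count on these nuclear genes in controls and 14.5, 3.75 and 4.87 in mutants. The ratio of mutant 1 was thus 2.96 times the highest of the other 5 libraries, which lay between 3.75 and 4.88. As a log2 ratio the difference of mutants from controls was 0.51, and it was -0.08 without mutant 1.

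**Figure D5:**
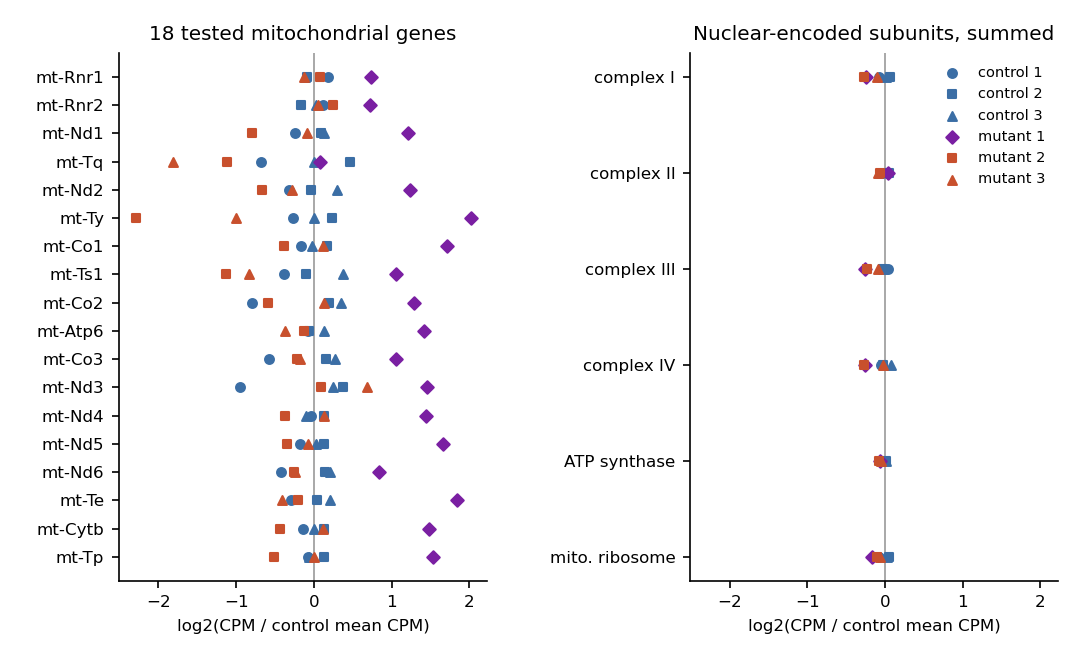
Level in each library relative to the control mean, on a log2 scale, for the 18 tested mitochondrial genes (left) and for summed CPM of nuclear-encoded subunits by complex (right, same axis). Mutant 1 (diamonds) is the highest library for 17 of the 18 mitochondrial genes, and the nuclear sums of all libraries lie close to 0.

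By complex, the summed level of nuclear complex I genes was 1451, 1594 and 1535 CPM in controls and 1290, 1265 and 1421 in mutants. For complex III it was 554, 530 and 531 CPM in controls and 449, 457 and 506 in mutants. For ATP synthase it was 1655, 1713 and 1715 CPM in controls and 1627, 1608 and 1629 in mutants. In all 3 the mutants lay below the controls, and no background share is given for sums of this kind. For complex IV the groups overlapped, with 845 to 1003 CPM in mutants and 990 to 1078 in controls, and so they did for complex II, which has no subunit from the mitochondrial genome.

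Of the nuclear complex I genes, 36 were tested and 33 had a log2 fold change below 0, with a median of -0.21, where 48.4% of all genes were above 0. Without mutant 1, 31 of the 36 were below 0, with a median of -0.15, where 49.7% of all genes were above 0. With all libraries, an unadjusted p under 0.05 was found for 5 of the 36, all lower in mutants, where 4.32% of all genes were called in that direction. Without mutant 1 it was found for 3, where 2.52% of all genes were called lower. The 5 were Ndufb5, Ndufa5, Ndufs6, Ndufa3 and Ndufab1. Ndufb5, a subunit of the membrane arm, stood at 48.05, 38.86 and 38.77 CPM in controls and at 29.2, 29.3 and 28.5 in mutants, a log2 fold change of -0.53 ± 0.16 (SE, adjusted p = 0.676 by edgeR). Ndufa5, a subunit of the matrix arm, stood at 32.9, 36.1 and 34.0 CPM in controls and at 27.2, 18.8 and 25.2 in mutants. Both genes were named for their unadjusted p in edgeR. Their groups did not overlap, where they did not for 11.4% of all genes, 5.96% with the mutants lower. The abundant subunit Ndufb11 had a log2 fold change of -0.22 ± 0.17 (SE).

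In the other complexes, counts of genes lower at an unadjusted p under 0.05 stand against the same 4.32% of all genes. Counts without mutant 1 stand against 2.52% of all genes. Of 9 nuclear complex III genes, 1 was lower, Uqcr10 at 63.0, 67.7 and 59.8 CPM in controls and 40.5, 46.5 and 57.2 in mutants (adjusted p = 0.691 by edgeR), and the count was 0 without mutant 1. Of 14 tested for complex IV, 2 were lower, and 1, Cox8b, without mutant 1. Cox5b stood at 87.8, 78.5 and 79.2 CPM in controls and at 67.9, 58.8 and 65.9 in mutants (adjusted p = 0.691 by edgeR). Cox8b, the form found in heart and skeletal muscle, stood at 24.8, 4.11 and 6.96 CPM in controls and 3.07, 3.59 and 4.14 in mutants, and control 1, where it was highest, also had the highest sum of 14 skeletal muscle genes, 5538 CPM against 227 to 344 in the others. Of 16 ATP synthase genes, 1 was lower with and without mutant 1, Atp5k, at 27.0, 31.4 and 34.9 CPM in controls and 19.1, 22.6 and 20.8 in mutants (adjusted p = 0.676 by edgeR). None of the nuclear subunits had an adjusted p under 0.05 by edgeR, where 1 gene of 16152 did (0.00619%).

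Nuclear genes that act on the mitochondrial genome itself showed few differences. The 12 genes of mitochondrial transcription, which include the polymerase Polrmt and the packaging factor Tfam, had 0 members at an unadjusted p under 0.05 in either direction, with or without mutant 1, a median log2 fold change of -0.10, and sums of 199 to 218 CPM in controls and 214 to 226 in mutants. The 26 tested genes of mitochondrial RNA processing and stability had 0 as well in both cases, with a median of 0.04. Of 12 genes of mitochondrial DNA replication, 2 were lower, Polg2, the accessory subunit of the mitochondrial DNA polymerase, and Dguok, a kinase that supplies deoxynucleotides, where 4.32% of all genes were called lower. Without mutant 1 the count was 1, Polg2, where 2.52% of all genes were called lower. Polg2 stood at 8.78, 12.99 and 11.57 CPM in controls and 8.99, 5.22 and 5.95 in mutants (adjusted p = 0.678 by edgeR). In mutant 1 the summed levels of these 3 lists lay within the range of the controls.

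Of 75 tested proteins of the mitochondrial ribosome, 1 was higher and 2 were lower at an unadjusted p under 0.05, where 2.89% of all genes were called higher and 4.32% lower. Without mutant 1 these were 1 and 0, where 4.76% of all genes were called in all and 2.52% lower. The median log2 fold change with all libraries was -0.08. Mrpl3, a protein of the large subunit, was the higher one, at 16.4, 15.1 and 17.4 CPM in controls and 24.7, 22.6 and 23.6 in mutants (log2 fold change 0.54 ± 0.17, SE, adjusted p = 0.676 by edgeR). The lower ones were Mrps6 and Mrpl27. Of 13 translation factors, the initiation factor Mtif2 was lower, with a log2 fold change of -0.50 ± 0.18 (SE), and without mutant 1 the count was 0.

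Of 11 regulators of mitochondrial biogenesis, 2 were lower and 1 was higher at an unadjusted p under 0.05, where 4.32% of all genes were called lower and 2.89% higher. Without mutant 1 the counts were 1 lower, Esrrg, and 0 higher, where 4.76% of all genes were called in all and 2.52% lower. Ppargc1a, a coactivator of genes of oxidative metabolism, stood at 1.61, 2.55 and 4.14 CPM in controls and at 0.23, 0.65 and 1.17 in mutants, a log2 fold change of -2.00 ± 0.70 (SE, adjusted p = 0.676 by edgeR), and without mutant 1 its unadjusted p was above 0.05. Esrrg, a nuclear receptor of the same programme, stood at 4.92, 15.1 and 21.5 CPM in controls and at 2.85, 4.81 and 5.74 in mutants (adjusted p = 0.676 by edgeR). The groups did not overlap for Ppargc1a, as for 11.4% of all genes, 5.96% with the mutants lower, and overlapped for Esrrg. Pprc1, a coactivator related to Ppargc1a, was the higher one, with a log2 fold change of 0.42 ± 0.18 (SE). The mitochondrial mRNAs of the same mutants lay on both sides of the controls.

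Other values of mutant 1 stood beside its mitochondrial counts. It had the highest share of read pairs that were not aligned, 18.9% against 11.97% to 15.18%, and the lowest share that the counting assigned to no feature, 39.4% against 41.8% to 43.3%. The immediate early genes Fos, Fosb, Junb and Egr1, looked at after their values were seen, were highest there, with Fos at 210 CPM against 14.7 to 70.3, here without TMM scaling. Of the fixed lists, all 9 neutrophil genes, 6 of 7 macrophage genes and 4 of 8 genes of neurons and glia were highest in mutant 1, as were 21.2% of all genes. The sums were 157 CPM against 16.2 to 60.7 for neutrophils, 108 against 52.3 to 74.9 for macrophages and 3580 against 217 to 2497 for neurons and glia, where the myelin gene Mbp made up 3317 of the 3580. No marker of these lists was at 0 in all libraries. The muscle list, whose tissue is rich in mitochondria, was high in control 1 alone, where the mitochondrial share was 2.05%. The part of any of these in the mitochondrial counts of mutant 1 was not tested.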

How the data were processed

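Poly(A) RNA from pooled discs was sequenced as paired ends with a NEBNext Ultra kit that does not mark strand. The authors deposited raw counts per gene symbol, 1 file per library. For alignment the paper names Cutadapt, HISAT2 and GRCm38.88, and the submitters' processing notes name STAR 2.5.3a, HTSeq, DESeq2, mm10 and GRCm38; which made the counts, and the strand setting, are not given in the sources used here. A deposited table of the authors' own comparison was not used.

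The groups were tested in edgeR 4.0.16 (R 4.3.3) with genotype as the only term (TMM scaling, filterByExpr with a count minimum of 10, quasi-likelihood test, Benjamini-Hochberg adjustment over all 16152 genes tested); DESeq2 1.42.0 and limma-voom 3.58.1 were alternatives. CPM are scaled by TMM, and shares and ratios within a library use raw counts and no test. Test steps were tested on simulated data. Coordinates, lengths and sequences are from GENCODE M21 (GRCm38), which matched 90.8% of symbols. p-values measure the spread between pools. Every mitochondrial gene with a count is named; of each nuclear list, members at an unadjusted p under 0.05 (at most 6) and the 2 with most counts could be named. Members and lists were chosen with earlier results of these data known. 1 gene that this rule names is not reported here.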

Additional observations from a re-analysis of the deposited data

How the results depend on the processing

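Leaving out mutant 1 turned the sign for 10 of 11 mRNAs, the mitochondrial share and 2 of the 3 log2 ratios, but not for mt-Nd3, the rRNAs or the mt-Nd6 ratio. The difference in the log2 ratio of mt-Nd6 to the other 12 mRNAs went from -0.23 to -0.017. The log2 fold change went from 0.28 to 0.017 for mt-Rnr1 and from 0.37 to 0.19 for mt-Rnr2. Over fits that left out 1 library each, the log2 fold change ran from -0.075 to 1.14 for mt-Co1, -0.094 to 0.98 for mt-Cytb, -0.37 to 0.72 for mt-Nd1, -0.42 to 0.69 for mt-Nd2, -0.066 to 0.95 for mt-Nd4, -0.17 to 1.06 for mt-Nd5, -0.21 to 0.42 for mt-Nd6, -0.15 to 0.84 for mt-Co2, -0.21 to 0.83 for mt-Atp6 and -0.16 to 0.58 for mt-Co3, in each case lowest and below 0 without mutant 1. The difference of mutants from controls ran from -0.372 to 1.57 percentage points for the mitochondrial share, -0.40 to 0.32 for the log2 ratio of rRNA to mRNA (above 0 without mutant 1 and without control 1, at 0.12) and -0.077 to 0.90 for the log2 ratio of mitochondrial to nuclear subunits. With library size taken from mitochondrial mRNA counts, log2 fold changes went both ways, as that scaling sets the mRNA sum equal. They were -0.050 for mt-Rnr1, -0.25 for mt-Nd1, -0.25 for mt-Nd2, -0.048 for mt-Co2, -0.028 for mt-Atp6, -0.092 for mt-Co3 and -0.19 for mt-Nd6. Above 0 were mt-Rnr2 (0.089), mt-Co1 (0.13), mt-Nd3 (0.44), mt-Nd4 (0.039), mt-Nd5 (0.065) and mt-Cytb (0.033). By edgeR, 0 mitochondrial genes had an unadjusted p under 0.05 with that library size. They numbered 0 to 5 without 1 library, and 2 (mt-Nd5 and mt-Tp) with no filter on low counts.

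Over all genes, 1 passed at an adjusted p under 0.05, against 36 with library size from mitochondrial mRNA, 245 with no filter, 58 with DESeq2, 0 with limma-voom, 0 with a replicate block and 0 to 31 without 1 library. At an unadjusted p under 0.05 there were 1164, against 355 with library size from mitochondrial mRNA, 2276 with no filter and 618 to 2427 without 1 library. Genes lower at an unadjusted p under 0.05 without 1 library numbered 2 to 3 for nuclear complex I, 0 to 2 for complex III, 0 to 2 for complex IV, 1 to 2 for ATP synthase and 0 to 3 for the mitochondrial ribosome. With library size from mitochondrial mRNA they numbered 0 for complexes I and III, ATP synthase and the ribosome; with no filter 2, 0 and 1 for complexes I and III and the ribosome; with DESeq2 3, 0, 1 and 1 for complexes I, III and IV and the ribosome; with TMM computed without mt- rows 0 and 1 for complexes III and IV; and with limma-voom 2 and 1. The causes were not tested.

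Same-numbered pools did not deviate together (correlations 0.10, -0.21 and 0.09), and the main fit did not pair them. Correlations of deviations within groups of 3 pools cannot exclude that same-numbered pools share a litter or a preparation. With a replicate block, the mt-Co1 log2 fold change was 0.47, 1002 genes passed at an unadjusted p under 0.05, no mitochondrial gene did, and the lower nuclear genes were 0, 1 and 1 for complexes III and IV and the ribosome. In the ratio of both genomes, leaving out mt-Co1, mt-Co2, mt-Atp8, mt-Atp6 and mt-Co3 gave 0.44 and, chosen after seeing the data, the 5 mRNAs mt-Cytb, mt-Nd1, mt-Nd2, mt-Nd5 and mt-Nd6, with at most 3.19% of windows shared, gave 0.42, against 0.51. With 3 pools a group, these data do not set a small difference apart from none.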
